A study of Mus musculus with 18 samples.

Results

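The ovaries of prepubertal female mice at postnatal day 21 (Pd21) whose mothers ate a high-methionine diet were compared with those of age-matched offspring of mothers on a control diet. The 6 libraries labelled Pd21 were taken from the 18 of the series, 3 from the F1-HHcy group and 3 from the F1-Control group, where F1 stands for the offspring and HHcy for the raised blood homocysteine that the diet is meant to give the mothers. All animals were wild-type C57BL/6J females. The mothers of the F1-HHcy group received chow with 3% methionine from 4 weeks before mating, through pregnancy and until the end of lactation according to the labels (the study's methods give a longer period before mating), and the mothers of the F1-Control group received normal chow. The pups themselves were not treated, and Pd21 was also the day of weaning. The labels place all 6 libraries in batch 2, so the diets were compared within 1 batch. Whether a library came from 1 pup or from several, and from how many litters, is not given in the sources used here, so the p-values below measure the spread between these libraries only. Whole ovaries were taken, and no source used here says how the tissue around them was trimmed away. The comparison addresses how the diet of the mother is reflected in the ovarian RNA of the daughters shortly before puberty.

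Methionine is converted to homocysteine after giving up its methyl group, and homocysteine is either remethylated or passed on to cysteine by transsulfuration. The ovary at this age holds oocytes in growing follicles, the granulosa and theca cells around them, stroma, vessels and a thin surface epithelium. Multiciliated cells, each with a tuft of motile cilia, line the oviduct next to it, where they stand beside secretory cells. The motile cilium is built on a core of microtubules, the axoneme, whose dynein motors bend it and whose radial spokes and central pair set the rhythm. FOXJ1 and factors of the RFX family switch on the genes of these parts.

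The authors deposited 1 value per gene and library, which behaved as FPKM (fragments counted per kilobase of gene, scaled to the depth of the library), and the fragments counted ranged from 36058456 to 39399281 among the 6 libraries. Of 30172 genes, the 13350 that reached 1 FPKM in 3 or more of the 6 Pd21 libraries were tested with limma on log2(FPKM + 1). A gene is said to have risen or fallen where its adjusted p (limma, Benjamini-Hochberg over the 13350 genes) was under 0.05. Across these genes, Pearson's r between libraries was 0.96 to 0.974 among the F1-Control libraries, 0.958 to 0.985 among the F1-HHcy libraries and 0.933 to 0.977 between the groups, where the highest value joined F1-Control replicate 2 with F1-HHcy replicate 3. For the label of the tissue, the 50 oocyte genes in the files summed to between 4664 and 6646 FPKM in the 6 libraries.

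The diet difference at Pd21 ran almost wholly in 1 direction. In the F1-HHcy ovaries 298 genes fell, which is 2.23% of those tested, and 0 genes rose (0.0%). An unadjusted p under 0.05 was reached by 876 lower and 38 higher genes. By a looser criterion, which asks for p under 0.05 before adjustment and a change of more than 0.58 on the log2 scale, 675 genes were lower (5.06%) and 11 were higher (0.0824%). The median log2 fold change of all genes tested was -0.011. The 298 genes fell by a median of 2.01 on the log2 scale, 151 of them by more than 4-fold and 15 by more than 16-fold on the FPKM + 1 scale.

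In all 298 genes the 3 F1-HHcy libraries lay below the 3 F1-Control libraries, which their choice by these same values made likely. Among all genes tested, 1150 had this order and 256 had the opposite order, together 10.5%. The filter took part in the count of 298. Of these genes, 201 were below 1 FPKM in every F1-HHcy library. They entered the test only because all 3 F1-Control libraries reached 1 FPKM. Among all genes tested, 263 entered in that way and 3 entered through the F1-HHcy libraries alone. With no filter, 37 genes fell, and of the genes named here with values 32 lost their call. The other 97 of the 298 genes were above 1 FPKM in at least 1 F1-HHcy library.

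The control libraries did not carry these genes at an equal level. F1-Control replicate 1 was the highest of the 3 for 232 of the 298 genes (77.9%, against 32.2% of all genes tested) and F1-Control replicate 3 for 61, while F1-Control replicate 2 was the lowest of them for 270 (90.6%, against 32.6% of all genes tested). The count of lower genes moved with single libraries. Among the controls, leaving out replicate 1 gave 188, replicate 2 gave 383 and replicate 3 gave 136. Among the F1-HHcy libraries it gave 183, 143 and 176 in the same order. With F1-Control replicate 2 as the only control library, an alternative chosen after seeing the data in which that library is assumed to vary like the F1-HHcy libraries, 155 genes fell, and all 155 were among the 298.

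**Figure D1:**
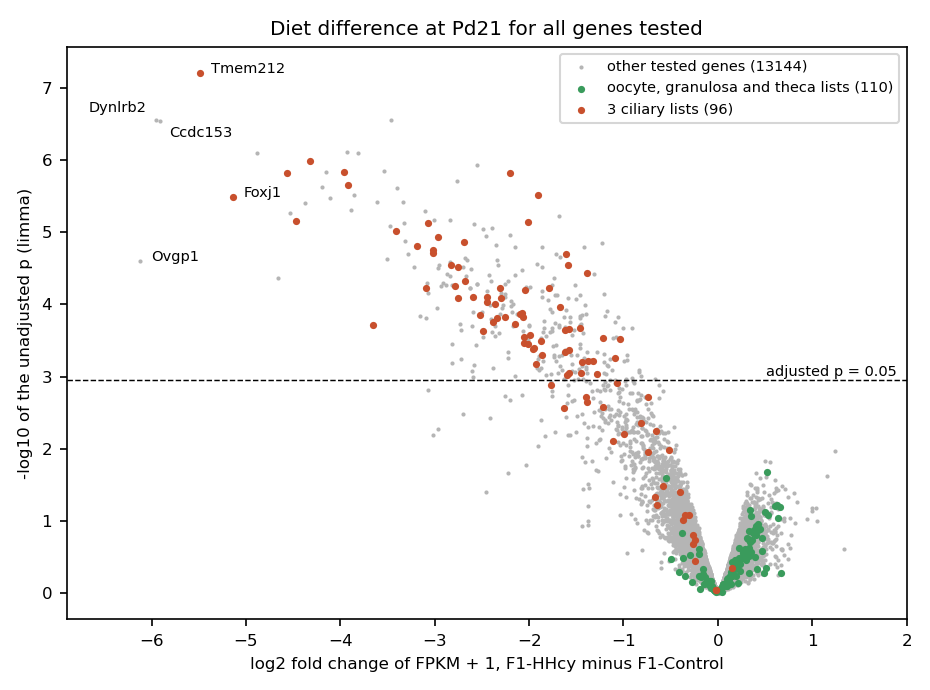
Log2 fold change of FPKM + 1 (F1-HHcy minus F1-Control, 3 libraries each) against -log10 of the unadjusted limma p for the 13350 genes tested at Pd21. Genes of the 3 ciliary lists (orange, 96) reach far to the left and genes of the oocyte, granulosa and theca lists (green, 110) stay near 0, and no gene right of 0 passes the dashed line of adjusted p = 0.05.

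The largest falls included genes of motile cilia and of secretory epithelium. The gene with the largest fall was Ovgp1, which encodes oviductin, a glycoprotein that the secretory cells of the oviduct release (chromosome 3, 105973802 to 105987423, GRCm38.p6). It stood at 216, 37.5 and 365 FPKM in F1-Control replicates 1, 2 and 3 and at 2.1, 0.37 and 1.12 FPKM in the F1-HHcy replicates. The lowest control was thus far above the highest F1-HHcy library, although the controls differed widely among themselves, and Ovgp1 fell by 6.13 on the log2 scale (SE 0.73, limma adjusted p = 0.00541, and 0.0927 with no filter on low values). Next came Dynlrb2, a light chain of dynein of the roadblock type (chromosome 8, 116505015 to 116515915), at 189, 53.2 and 86.9 FPKM in the controls and 0.485, 0.353 and 0.887 FPKM in F1-HHcy (log2 fold change -5.96, SE 0.40, limma adjusted p = 0.000955). Ccdc153, a coiled-coil protein of motile cilia (chromosome 9, 44240677 to 44247306), had 149, 43.8 and 87.3 FPKM against 0.83, 0.228 and 0.201 FPKM (log2 fold change -5.92, SE 0.40, limma adjusted p = 0.000955).

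Of the 15 genes with the largest falls, all had F1-Control replicate 2 as the lowest control, and 13 had F1-Control replicate 1 above replicate 3. Their highest F1-HHcy value was 2.1 FPKM. All but Ovgp1, Tmem212, Plet1 and Anxa8 were below 1 FPKM in every F1-HHcy library and entered the test through the controls alone. Beside those given above and below, the 15 were Gm19935, Plet1, 1700024G13Rik, Capsl, 3300002A11Rik, Anxa8, 2410004P03Rik and 1700016K19Rik, with log2 fold changes from -4.88 (Gm19935) to -4.11 (1700016K19Rik). Capsl, a calcium-binding protein, had 54.2, 12.0 and 29.8 FPKM against 0.331, 0.421 and 0.065 FPKM. Anxa8, an annexin of epithelia, had 51.3, 17.4 and 30.3 FPKM against 0.634, 0.317 and 1.28 FPKM.

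The list of multiciliated cells held regulators and also structural genes such as Tekt1, Sntn and Pifo. Sntn was in the list of ciliary structure below as well. Of the 11 tested genes (of 16 in the list) 6 fell, where 2.23% of all genes tested did. The median log2 fold change was -1.96. Foxj1, the master regulator of motile cilia (chromosome 11, 116330704 to 116335499), had 99.1, 20.4 and 49.7 FPKM in the controls against 0.371, 0.441 and 0.248 FPKM in F1-HHcy. Behind these values stood 10661, 2137 and 5362 fragments against 37, 47 and 27, so counting error was small beside the difference. Foxj1 fell by 5.14 on the log2 scale (SE 0.47, limma adjusted p = 0.00201), and the mean FPKM was 159 times as high in the controls. Its adjusted p was 0.0553 with no filter on low values.

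Pifo, which acts at the base of the cilium, had 45.4, 13 and 28.1 FPKM against 0.0984, 0.23 and 0.045 FPKM (log2 fold change -4.57, SE 0.38, limma adjusted p = 0.00146). Sntn, sentan of the ciliary tip, had 38.9, 14.0 and 16.2 FPKM against 0.157, 0 and 0.123 FPKM, where the 0 fragments of F1-HHcy replicate 2 allow up to 3 fragments or 0.0628 FPKM as far as counting error goes. Ccdc78, a protein of the sites where centrioles multiply, had 14.6, 5.5 and 6.74 FPKM against 0.225, 0.0452 and 0.0295 FPKM (log2 fold change -3.07, SE 0.31, limma adjusted p = 0.00283). Ccno, a cyclin-like gene of the same step, did not share this pattern: it had 98.2, 69.9 and 75.9 FPKM in the controls and 98.9, 74.8 and 95.8 FPKM in F1-HHcy, with a log2 fold change of 0.15 (limma adjusted p = 1.0). Ccno already stood at 25.6 to 59.3 FPKM in the 12 libraries of Pd3 and Pd7, where Foxj1 did not exceed 2.13 FPKM. Which cells its RNA came from was not tested. The count of 6 was 2 with no filter. In the whole list 7 of the 11 tested genes entered through the controls alone, and over all 16 genes in the files 15 had every F1-HHcy library below every control, against 7.79% of all 30172 genes.

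RFX factors bind a sequence called the X-box, of which GTTGCC is a half-site. The 250 bases before the RefSeq start of 4 of the 15 genes are printed to show where these letters stand in promoters of genes that fell, with every GTTGCC (or GGCAAC, its reverse complement) in capitals and the rest in lower case, 5′ to 3′ along the gene.
Dynlrb2 (GRCm38.p6, chr8:116504765-116505014, plus strand): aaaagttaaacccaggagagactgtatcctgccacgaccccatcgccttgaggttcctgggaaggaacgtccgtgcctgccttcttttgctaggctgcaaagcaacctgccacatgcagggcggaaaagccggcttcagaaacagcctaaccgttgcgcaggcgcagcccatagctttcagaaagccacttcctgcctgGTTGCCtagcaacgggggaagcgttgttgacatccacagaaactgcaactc
Ccdc153 (GRCm38.p6, chr9:44240427-44240676, plus strand): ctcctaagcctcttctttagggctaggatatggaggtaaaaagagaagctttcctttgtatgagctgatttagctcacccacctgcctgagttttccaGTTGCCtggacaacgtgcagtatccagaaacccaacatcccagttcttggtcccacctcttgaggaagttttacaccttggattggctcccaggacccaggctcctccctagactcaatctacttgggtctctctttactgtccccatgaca
Pifo, the start nearer the 3′ end of the gene (GRCm38.p6, chr3:106001498-106001747, minus strand): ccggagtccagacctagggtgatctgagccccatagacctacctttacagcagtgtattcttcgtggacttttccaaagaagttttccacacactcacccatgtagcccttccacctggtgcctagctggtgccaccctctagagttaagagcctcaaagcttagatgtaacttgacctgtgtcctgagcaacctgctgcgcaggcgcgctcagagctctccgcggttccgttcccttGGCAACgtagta
Sntn (GRCm38.p6, chr14:13670626-13670875, plus strand): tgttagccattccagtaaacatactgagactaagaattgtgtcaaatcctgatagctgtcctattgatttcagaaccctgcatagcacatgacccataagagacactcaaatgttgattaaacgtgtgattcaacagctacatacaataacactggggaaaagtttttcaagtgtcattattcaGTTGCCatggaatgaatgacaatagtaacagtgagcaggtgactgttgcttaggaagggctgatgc

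The half-sites began 51 bases before the start in Dynlrb2, 152 in Ccdc153, 12 in Pifo and 66 in Sntn. Of the 15 genes, 12 had a promoter in the RefSeq table, and these 4 held the half-site upstream of a start, while the other start of Pifo in the table, chr3:106014647-106014896, held none. In windows of 300 bases (250 before and 50 after the start, both strands, any start of a gene) GTTGCC stood in 14.1% of 27025 genes with a promoter, in 15.0% of the 10671 of these that were tested, and in 33.5% of the 236 of the 298 fallen genes that had a promoter. It stood in 48.7% of the 78 tested genes of the 3 ciliary lists with a promoter, with 44.4% of the 54 that fell and 58.3% of the 24 that did not, in 30.2% of the 182 fallen genes outside those lists, and in 7.23% of 83 tested genes of the oocyte, granulosa and theca lists. In the full X-box a pair of half-sites face each other. It was found in 4 of the 236 fallen genes (1.69%), 0.656% of the tested genes and 0.529% of all genes with a promoter. In the ciliary lists it stood in 2 of the 54 genes that fell and 1 of the 24 that did not. TGTTTAC is a core that forkhead factors such as FOXJ1 can bind. It was found in 15 of the 236 fallen genes (6.36%), 3.08% of the tested genes and 4.05% of all genes with a promoter. The full X-box can overlap a GTTGCC, and these matches describe the letters of the windows and not binding.

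Dynein genes of the axoneme and their assembly factors fell in 15 of 26 tested cases (57.7%, against 2.23% of all genes tested), with a median log2 fold change of -1.48 and none above 0. Dnali1, a light intermediate chain of the inner arm, had 33.6, 12.5 and 16.8 FPKM against 0.532, 0.274 and 0.134 FPKM (log2 fold change -3.96, SE 0.33, limma adjusted p = 0.00146). The large heavy chains were lower in level and less uneven among the controls. Dnah6 had 2.39, 1.65 and 2.85 FPKM against 0.123, 0.0621 and 0.0792 FPKM, and Dnah3 had 2.04, 1.49 and 1.43 FPKM against 0.0242, 0.00756 and 0.0074 FPKM, with log2 fold changes of -1.58 and -1.38 that the added 1 FPKM shrinks. Ccdc151, a docking protein of the outer arm, fell by 2.31 on the log2 scale (SE 0.31, limma adjusted p = 0.00753). Dnal1 did not pass, with 5.37, 4.49 and 5.65 FPKM against 4.53, 3.95 and 3.13 FPKM (limma adjusted p = 0.92). Of the 26, 18 entered through the controls alone, and 26 of the 33 genes of the list in the files had all F1-HHcy libraries below all controls. The 15 became 2 with no filter, 5 when F1-Control replicate 3 was left out, 10 when F1-Control replicate 1 was, and 8 or 9 when an F1-HHcy library was.

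The list of ciliary structure held proteins of the central pair, radial spokes, rulers, tektins and the inner face of the microtubules. It had the highest share of fallen genes of the 30 lists examined, 49 of 60 tested (81.7%, against 2.23% of all genes tested). The filter favoured such a share: 30 of the 60 entered through the controls alone, and 201 of all 263 genes that entered so fell. The lists were also chosen with earlier results of these data known. The median log2 fold change was -2.03, with no gene above 0. Tmem212, a membrane protein of motile cilia (chromosome 3, 27866065 to 27896391), had 115, 52.7 and 55.9 FPKM against 1.01, 0.351 and 0.446 FPKM and the smallest p of all genes tested (log2 fold change -5.49, SE 0.31, limma adjusted p = 0.000828). Cfap65, a protein of the central pair, had controls close together, at 3.71, 4.83 and 3.3 FPKM against 0.125, 0.00389 and 0.0799 FPKM (log2 fold change -2.20, SE 0.18, limma adjusted p = 0.00146). Lrrc23, a radial spoke protein, had 25.6, 9.55 and 24.4 FPKM against 0.373, 0.349 and 0.114 FPKM (log2 fold change -3.92, SE 0.34, limma adjusted p = 0.0018).

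Some structural genes kept a clear level in F1-HHcy. Tppp3, a tubulin-binding protein, had 157, 54.1 and 82.7 FPKM against 9.63, 6.59 and 11 FPKM, and Rsph1, a radial spoke head protein, had 73.2, 20.8 and 36.4 FPKM against 5.5, 2.87 and 2.9 FPKM. Both fell, by 3.19 and 3.09 on the log2 scale (SE 0.36 and 0.41, limma adjusted p = 0.00423 and 0.00753). Fam183b had 119, 32.3 and 43.3 FPKM against 0.987, 5.91 and 5.51 FPKM (limma adjusted p = 0.0148), and it did not pass without F1-Control replicate 3 (adjusted p = 0.0607).

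The summed level of the 77 genes of this list in the files was 1162, 430.8 and 676.5 FPKM in the controls and 111.5, 88.61 and 108.9 FPKM in F1-HHcy, so the F1-HHcy libraries were close to each other and the controls were not. Of the 77 genes, 71 had all F1-HHcy libraries below all controls and 0 had them all above, and 30 of the 60 tested genes entered through the controls alone. The count of 49 became 7 with no filter, 36, 50 and 21 when control replicates 1, 2 and 3 were left out in turn, and 30, 24 and 29 for the F1-HHcy replicates. With F1-Control replicate 2 as the only control, 28 fell. In bulk RNA, fewer cells of a type and less RNA per cell cannot be told apart.

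Intraflagellar transport genes, which every cilium uses, including the single primary cilium of most cells, fell in 1 of 30 tested cases (3.33%, near the 2.23% of all genes tested), with a median log2 fold change of -0.36 and 28 of 30 below 0, where 52.5% of all genes tested were below 0. The 1 gene was Ttc30b, at 11.2, 8.39 and 12.4 FPKM against 5.02, 5.4 and 4.37 FPKM (log2 fold change -0.96, SE 0.18, limma adjusted p = 0.0317), a call that was lost without any 1 of the libraries other than F1-Control replicate 2 (adjusted p from 0.0803 to 0.161). Ift172 had 13.4, 9.14 and 11.5 FPKM against 7.7, 5.68 and 5.07 FPKM (limma adjusted p = 0.125), and Ift57 had 15.5, 9.51 and 12.4 FPKM against 6.5, 7.09 and 7.53 FPKM (limma adjusted p = 0.146).

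**Figure D2:**
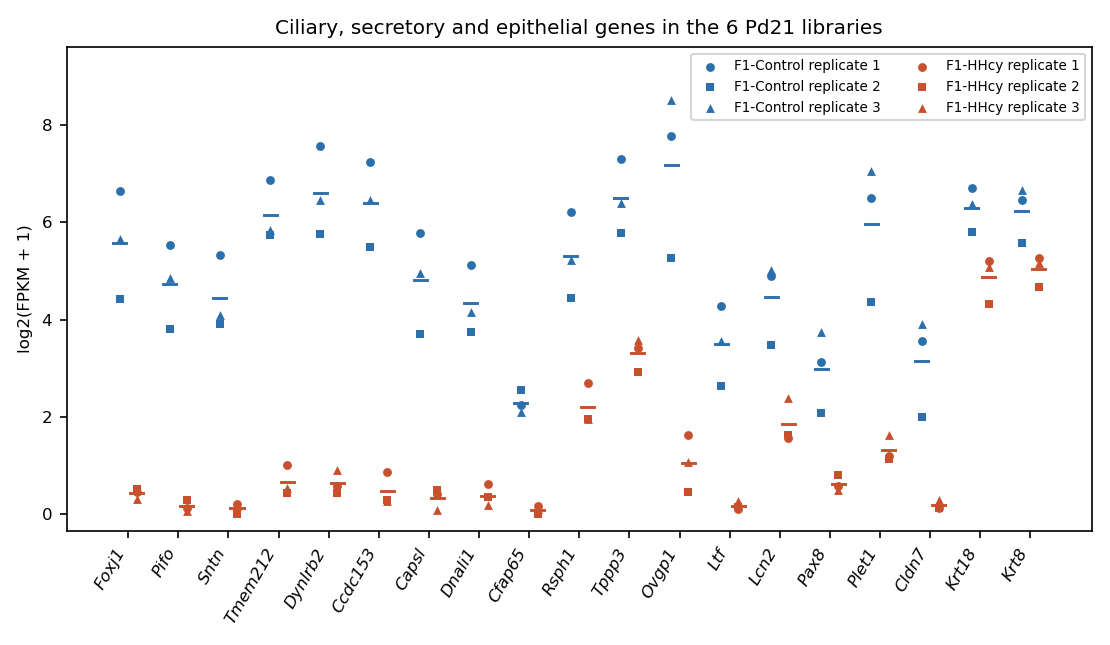
Log2(FPKM + 1) of 19 ciliary, secretory and epithelial genes in each Pd21 library, F1-Control in blue and F1-HHcy in orange, with a symbol per replicate and a bar for the group mean (n = 3). Every control point lies above every F1-HHcy point of the same gene, replicate 1 is the top control of Foxj1, Pifo and Sntn, and replicate 3 is the top control of Ovgp1, Pax8 and Plet1.

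Secretory genes of the oviduct lining fell in 5 of 16 tested cases (31.2%, against 2.23% of all genes tested), and the median log2 fold change was -1.33. Beside Ovgp1 these were Ltf, Lcn2, Pax8 and Muc1, and Ltf, Pax8 and Muc1 entered through the controls alone. The 5 became 1 with no filter, 2, 8 and 3 when control replicates 1, 2 and 3 were left out in turn, and 2, 2 and 4 for the F1-HHcy replicates. Ltf, the iron-binding defence protein lactoferrin, had 18.4, 5.2 and 10.8 FPKM against 0.0809, 0.104 and 0.204 FPKM (log2 fold change -3.32, SE 0.36, limma adjusted p = 0.00406). Lcn2, lipocalin 2, had 28.9, 10.1 and 31.5 FPKM against 1.95, 2.07 and 4.25 FPKM (log2 fold change -2.61, SE 0.41, limma adjusted p = 0.0151), and it did not pass without F1-Control replicate 1 or 3 or F1-HHcy replicate 1 or 2 (adjusted p from 0.0663 to 0.0788). Pax8, a transcription factor of the Mullerian duct and its secretory descendants, had 7.75, 3.25 and 12.5 FPKM against 0.486, 0.757 and 0.415 FPKM (log2 fold change -2.36, SE 0.37, limma adjusted p = 0.0149). It passed without F1-Control replicate 2 or 3 but not without any 1 of the other libraries (adjusted p from 0.0532 to 0.0784). The lower Ltf and Lcn2 were not particular to Pd21. In 1 limma model of all 18 libraries their log2 fold changes at Pd3 were -2.49 and -2.18 (limma adjusted p = 0.0361 and 0.0497). At Pd7 neither passed (limma adjusted p = 0.286 and 0.705). Their highest values in the Pd3 and Pd7 libraries were 21.4 and 33.6 FPKM.

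The controls were ordered differently in this list. For its 16 tested genes F1-Control replicate 3 was the top control in 9 and replicate 1 in 2, whereas replicate 1 was the top control in 58 of the 60 tested genes of ciliary structure. The summed level of the 23 genes in the files was 488.5, 299.5 and 724 FPKM in the controls and 138.9, 121.9 and 187.8 FPKM in F1-HHcy. Krt7, the most abundant member after Ovgp1 and Gpx3, had 45.2, 32.5 and 33.1 FPKM against 17.5, 7.15 and 21.2 FPKM without passing the test (limma adjusted p = 0.149). Of 10 tested factors of the Mullerian duct, the embryonic tube that gives the oviduct and uterus, 1 fell, which was Pax8 again, and the median log2 fold change was -0.38.

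Of 38 general epithelial genes tested, 4 fell (10.5%, against 2.23% of all genes tested), 20 were lower by the looser criterion (5.06% of all genes tested), and the median log2 fold change was -0.68. Plet1, a surface protein of epithelial progenitors, had 89.5, 19.4 and 133 FPKM against 1.28, 1.19 and 2.08 FPKM (log2 fold change -4.66, SE 0.60, limma adjusted p = 0.0068), but it did not pass with no filter (adjusted p = 0.0981) or by limma-voom on the recovered fragments (0.0541). St14, the membrane protease matriptase, had 5.23, 2.29 and 6.88 FPKM against 0.554, 0.128 and 0.433 FPKM (log2 fold change -2.0, SE 0.32, limma adjusted p = 0.0149). Elf3, an epithelial transcription factor, fell by 1.21 on the log2 scale (SE 0.22, limma adjusted p = 0.028).

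The keratins of simple epithelia were lower and still abundant. Krt18 had 103, 54.6 and 82.3 FPKM against 35.8, 18.8 and 32.9 FPKM and passed narrowly (log2 fold change -1.43, SE 0.29, limma adjusted p = 0.0491), and its partner Krt8 had 86.4, 46.9 and 100 FPKM against 37.4, 24.6 and 34.7 FPKM without passing (limma adjusted p = 0.103). Krt18 did not pass without any 1 library other than F1-Control replicate 2 (adjusted p from 0.0695 to 0.208), nor did St14 without F1-Control replicate 1 or 3 or F1-HHcy replicate 2 or 3 (0.0519 to 0.0784) or Elf3 without F1-Control replicate 1 or 3 or F1-HHcy replicate 1 or 2 (0.0808 to 0.144). The count of 4 became 0 with no filter, 1, 12 and 1 when control replicates 1, 2 and 3 were left out in turn, and 2, 1 and 2 for the F1-HHcy replicates. The lower keratins were not particular to Pd21. In 1 limma model of all 18 libraries, Krt18, Krt8, Krt19 and Krt7 were also lower with the diet at Pd7. Their log2 fold changes there were -1.53, -1.38, -1.43 and -1.54 (limma adjusted p from 0.00687 to 0.0228). At Pd3 none of them passed (limma adjusted p from 0.151 to 0.834).

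The surface epithelium of the ovary and mesothelium shared the keratins with that list. Of 18 tested genes 1 fell (5.56%, against 2.23% of all genes tested), which was Krt18 again. By the looser criterion 9 were lower (5.06% of all genes tested), and the median log2 fold change was -0.57. Upk3b, a uroplakin typical of mesothelium, had 99.8, 89.5 and 109 FPKM against 59.6, 37.6 and 69.7 FPKM, with no overlap and without passing (log2 fold change -0.87, limma adjusted p = 0.146). Among claudins and other tight junction proteins, which seal epithelial sheets, 3 of 20 fell (15.0%, against 2.23% of all genes tested). These were Cldn7, Cldn3 and Cldn2, and the median log2 fold change of the list was -0.34. Cldn7 and Cldn2 entered through the controls alone. Cldn7 had 10.7, 3.01 and 14.0 FPKM against 0.0954, 0.0893 and 0.227 FPKM, and it did not pass without F1-Control replicate 1 (adjusted p = 0.0548). Cldn3 had 48.1, 14.9 and 45.5 FPKM against 6.57, 3.08 and 3.13 FPKM and did not pass (adjusted p from 0.0636 to 0.0837) without F1-Control replicate 1 or 3 or F1-HHcy replicate 2 or 3.

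In the list of mucins and their glycosylation, 2 of 10 tested genes fell (where 2.23% of all genes tested did), both of which entered through the controls alone. They were Muc1 (4.58, 2.28 and 6.81 FPKM against 0.556, 0.613 and 0.837 FPKM) and B3gnt3 (2.15, 1.24 and 1.61 FPKM against 0.395, 0.369 and 0.449 FPKM). Each lost its call without any 1 library other than F1-Control replicate 2 (adjusted p from 0.077 to 0.131 for Muc1 and from 0.121 to 0.171 for B3gnt3). Among epithelial ion transporters 1 of 16 fell (6.25%, against 2.23% of all genes tested). This was the chloride channel protein Clic6, which entered through the controls alone, at 5.34, 1.7 and 4.3 FPKM against 0.452, 0.132 and 0.108 FPKM (log2 fold change -1.88, SE 0.32, limma adjusted p = 0.0188). It did not pass without any 1 library other than F1-Control replicate 2 (adjusted p from 0.0525 to 0.099).

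**Figure D3:**
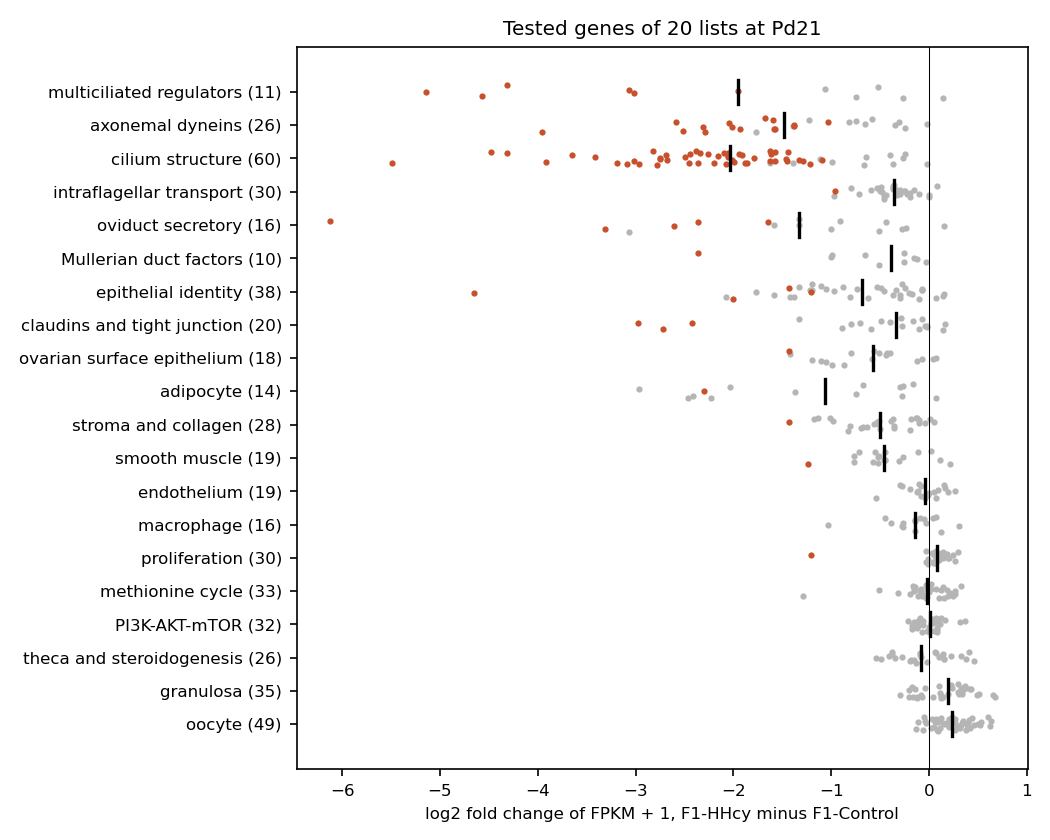
Log2 fold change of FPKM + 1 (F1-HHcy minus F1-Control) of each tested gene in 20 lists, with fallen genes in orange, other genes in grey, the list median as a black bar and the number tested in parentheses. The 3 ciliary lists have medians of -1.96, -1.48 and -2.03, and the oocyte and granulosa lists have medians of 0.23 and 0.19 with no fallen gene.

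Of 110 tested genes in the oocyte, granulosa and theca lists, 0 fell and 0 rose by limma (2.23% and 0.0% of all genes tested). The looser criterion was passed by 0 in either direction (5.06% lower and 0.0824% higher among all genes tested). Of the 110, 78 had a log2 fold change above 0 and 32 below, where 52.5% of all genes tested were below 0. The oocyte list (49 tested) had a median of 0.23, the granulosa list (35) 0.19 and the list of theca and steroid synthesis genes (26) -0.08. Gdf9, a growth factor that the oocyte sends to its granulosa cells, had 484, 395 and 303 FPKM in the controls and 479, 386 and 550 FPKM in F1-HHcy, with overlapping groups (log2 fold change 0.27, limma adjusted p = 1.0). Nlrp4e, a maternal gene of a family with close copies, had 5.07, 3.67 and 3.2 FPKM against 5.89, 5.65 and 6.74 FPKM (log2 fold change 0.52, limma adjusted p = 0.422).

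Slc18a2, a vesicular transporter in the granulosa list, had 113, 179 and 72.5 FPKM against 218, 162 and 164 FPKM (limma adjusted p = 0.826). Serpine2, a protease inhibitor of granulosa cells, had 490, 515 and 313 FPKM against 367, 693 and 611 FPKM. Hsd3b1, which makes progesterone from pregnenolone, had 1050, 561 and 785 FPKM against 1100, 1710 and 647 FPKM, with the highest and nearly the lowest value both in F1-HHcy (log2 fold change 0.46, limma adjusted p = 1.0). Summed over its 35 genes, the granulosa list reached 2982 to 3799 FPKM in the controls and 3352 to 5153 FPKM in F1-HHcy.

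**Figure D4:**
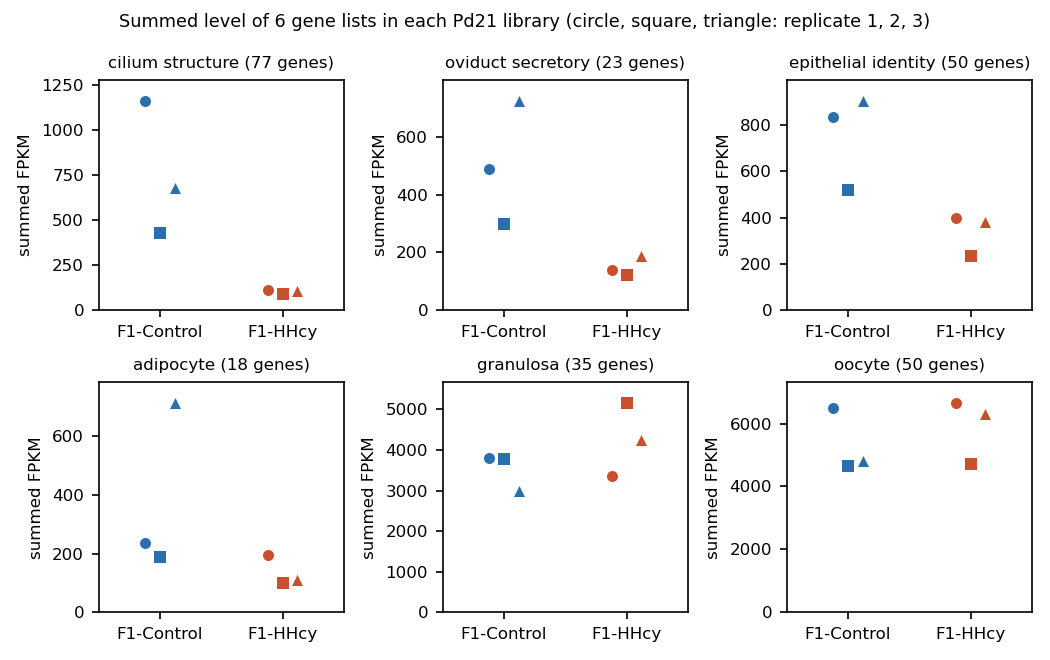
Summed FPKM of 6 gene lists in each Pd21 library, F1-Control in blue and F1-HHcy in orange, on linear axes from 0. The sums of ciliary structure, oviduct secretory and epithelial identity genes do not overlap between the groups, the adipocyte sum of F1-Control replicate 3 (710.6) stands far above the other 5, and the granulosa and oocyte sums overlap.

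Markers of other tissues next to the ovary also differed between libraries. Fat cell genes had a median log2 fold change of -1.06 over 14 tested genes. Of these, 7 were lower by the looser criterion (5.06% of all genes tested) and 1 fell (7.14%, against 2.23% of all genes tested). It was Cidea, which entered through the controls alone (7.92, 2.71 and 3.19 FPKM against 0.0715, 0.0223 and 0.0654 FPKM). F1-Control replicate 3 was the top control in 11 of the 14 genes, whereas Cidea was highest in replicate 1. The summed level of the 18 genes was 235.5, 188.9 and 710.6 FPKM in the controls and 194, 99.8 and 109.4 FPKM in F1-HHcy, so it overlapped between the groups, and the defining markers were above 0 in every library. Adipoq, the fat cell hormone adiponectin, had 8.49, 4.42 and 33.2 FPKM against 5.31, 1.07 and 0.968 FPKM (limma adjusted p = 0.364). Car3, a carbonic anhydrase of fat and muscle, had 34.5, 27.9 and 204 FPKM against 18.4, 4.68 and 2.99 FPKM (limma adjusted p = 0.164). The median of the list was -0.57 without F1-Control replicate 3. The tested genes of the oviduct secretory, epithelial identity and surface epithelium lists were likewise above 0 in every library. The part of surrounding fat, and of oviduct or other epithelium, in the fall of the 298 genes was not tested.

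In the stroma and collagen list 26 of the 28 tested genes were below 0, where 52.5% of all genes tested were. By the looser criterion 8 were lower (5.06% of all genes tested), and the median was -0.50. Of the 28, 1 fell (3.57%, near the 2.23% of all genes tested). The 1 gene was Clec3b, the plasminogen-binding tetranectin (10.6, 11.8 and 10.1 FPKM against 4.53, 2.04 and 4.02 FPKM, log2 fold change -1.43, SE 0.23, limma adjusted p = 0.0168). It did not pass without F1-Control replicate 1 or 3 (adjusted p = 0.0814 and 0.0709). Dcn, the matrix proteoglycan decorin, had 250, 270 and 372 FPKM against 212, 152 and 189 FPKM (limma adjusted p = 0.277). Among 19 smooth muscle genes 16 were below 0, 4 were lower by the looser criterion, and the median was -0.46. Of the 19, 1 fell (5.26%, against 2.23% of all genes tested). It was the intermediate filament desmin (Des), whose values were tight in both groups at 16.3, 15.2 and 14.1 FPKM against 5.82, 6.09 and 5.75 FPKM (log2 fold change -1.23, SE 0.14, limma adjusted p = 0.00406). Des kept its call when any 1 library was left out, but not without both F1-Control replicates 1 and 3 (adjusted p = 0.129).

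Of the endothelial genes 0 of 19 fell (median -0.04), of macrophage genes 0 of 16 (median -0.14), and of red cell genes 0 of 9, whose median of 0.31 turned to -0.17 when F1-HHcy replicate 3 was left out and to -0.43 without F1-Control replicates 1 and 3. The red cell sums were widely spread, from 140 to 576.7 FPKM in the controls and from 191.2 to 1026 FPKM in F1-HHcy. Among other leukocyte genes 1 of 10 fell, the mast cell protease Mcpt4, at 3.68, 3.51 and 6.15 FPKM against 1.79, 0.707 and 1.2 FPKM (limma adjusted p = 0.0423). It lost its call without F1-Control replicate 1 or 3 or F1-HHcy replicate 2 or 3 (adjusted p from 0.115 to 0.152). Skeletal muscle genes were too few for a statement, with 2 of 14 tested and 0 fallen.

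The enzymes that handle methionine and homocysteine showed no fallen or risen gene among 33 tested (limma; 1 was lower by the looser criterion and 0 were higher), and the median log2 fold change was -0.02. The 1 gene was Cbs, which joins homocysteine to serine in the first step of transsulfuration, with 17.8, 10.7 and 29.8 FPKM against 3.3, 7.12 and 12.2 FPKM. The groups overlapped, and Cbs did not pass (log2 fold change -1.29, limma adjusted p = 0.403). Mat2b, a subunit of the enzyme that makes S-adenosylmethionine, had 99.9, 85.1 and 68.9 FPKM against 90.9, 90.8 and 112 FPKM (limma adjusted p = 1.0). Sms, spermine synthase, which uses the decarboxylated form of that methyl donor, had 10, 10.4 and 9.5 FPKM against 11.2, 12.2 and 13.2 FPKM, with no overlap and without passing (log2 fold change 0.26, limma adjusted p = 0.941).

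In the PI3K, AKT and mTOR pathway, which governs the activation of primordial follicles, 0 of 32 genes fell or rose by limma, 0 passed the looser criterion, and the median was 0.01. Kitl, the ligand that granulosa cells send to the KIT receptor of the oocyte, had 34.2, 28.7 and 51.6 FPKM against 60.1, 50.6 and 36.2 FPKM (limma adjusted p = 1.0). Rps6kb1, the kinase of ribosomal protein S6, had 4.94, 6.2 and 5.99 FPKM against 6.94, 6.37 and 6.2 FPKM (limma adjusted p = 1.0). RNA levels leave the phosphorylation of these proteins unmeasured.

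Of 30 tested genes of S phase and mitosis 1 fell (3.33%, near the 2.23% of all genes tested), and the median was 0.08. Of the 30, 25 were above 0 and 5 below, where 52.5% of all genes tested were below 0. The only one to fall was Ccnd1, the cyclin of the G1 phase, at 17.8, 11.5 and 20.9 FPKM against 5.63, 6.12 and 7.83 FPKM (log2 fold change -1.21, SE 0.23, limma adjusted p = 0.033), and it did not pass without any 1 library other than F1-Control replicate 2 (adjusted p from 0.0636 to 0.166). The mitotic cyclin Ccnb1 had 54.4, 51.2 and 45.8 FPKM against 53.7, 68.5 and 65.4 FPKM (limma adjusted p = 0.889). Of 28 amino acid transporters 1 fell (3.57%, near the 2.23% of all genes tested), with a median of -0.03. It was the glutamine carrier Slc1a5 (15.3, 16.8 and 27.3 FPKM against 6.93, 4.49 and 6.93 FPKM, limma adjusted p = 0.016, and 0.0624 without F1-HHcy replicate 2). No retinoid gene (0 of 15, median -0.22) and no immediate early gene (0 of 19, median -0.16) fell or rose by limma, and none of either list passed the looser criterion.

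Defence genes were split. Of 20 tested chemokine, complement and secreted defence genes, 3 fell (15.0%, against 2.23% of all genes tested). By the looser criterion 8 were lower and 2 higher (5.06% and 0.0824% of all genes tested), and the median was -0.33. The 3 were Ltf and Lcn2, which are also in the secretory list, and Cxcl17, which like Ltf entered through the controls alone. Cxcl17 is a chemokine of mucosal epithelia with even controls (2.6, 2.36 and 2.69 FPKM against 0.219, 0.0341 and 0.0668 FPKM, log2 fold change -1.68, SE 0.17, limma adjusted p = 0.00274). The complement factor C3 had 56.9, 40.6 and 93.2 FPKM against 14.3, 11 and 30.5 FPKM without passing (limma adjusted p = 0.0739). Of 19 interferon-induced genes 1 fell (5.26%, against 2.23% of all genes tested), and the median was -0.11. It was Usp18, which removes ISG15 from proteins, at 9.02, 4.16 and 5.61 FPKM against 0.642, 1.25 and 0.917 FPKM (log2 fold change -1.87, SE 0.26, limma adjusted p = 0.00883).

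The 11 genes that were higher in F1-HHcy by the looser criterion had adjusted p-values from 0.27 to 0.7 and log2 fold changes from 0.60 to 1.24. Ttr, the carrier of thyroxine and retinol-binding protein, came first, at 1.31, 0.02 and 1.22 FPKM in the controls against 2.0, 5.31 and 2.66 FPKM (log2 fold change 1.24, SE 0.38, limma adjusted p = 0.27). The chemokine Cxcl10 had 0.91, 1.63 and 0.627 FPKM against 2.97, 1.56 and 7.88 FPKM, so that F1-HHcy replicate 2 lay within the controls, and Cxcl1 had 0.565, 2.04 and 0.348 FPKM against 2.53, 1.44 and 2.5 FPKM. Slc26a7, an anion exchanger, was the most abundant of the 11, at 31.3, 47.6 and 35.8 FPKM against 43.4, 81.1 and 53.8 FPKM. The others were AA465934, Gm46738, 4930558C23Rik, Gm52419, Tcl1b2, Gm8075 and Gm38924. The count rested on single libraries, becoming 50, 110 and 4 when control replicates 1, 2 and 3 were left out in turn, and 48, 43 and 11 for the F1-HHcy replicates.

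The levels at Pd21 were also set beside the 12 libraries of Pd3 and Pd7, and since the 298 genes were chosen for high Pd21 controls and low Pd21 F1-HHcy libraries, the counts are a description. For 263 of the 298 fallen genes (88.3%, against 10.6% of all genes tested) every Pd21 control lay above each of the 12 younger libraries of either diet, and for 255 of the 298 (85.6%, against 66.7% of all genes tested) no Pd21 F1-HHcy library lay above the highest of them. Both held for 220 genes (73.8%, against 2.23%). Of the 97 fallen genes that did not enter through the controls alone, 71 had every Pd21 control above the younger libraries. Foxj1 lay between 0.0646 and 2.13 FPKM in the 12 younger libraries, Tmem212 between 0 and 0.832 FPKM, and Ovgp1 between 0.795 and 12.1 FPKM. Since the labels put Pd21 in a batch of its own, the age and the batch cannot be told apart in this comparison of levels.

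The diet difference itself, taken within each day, was tested between days in 1 model of the 6 groups over all 18 libraries and 14607 genes. The diet effect at Pd21 was below that at Pd7 for 424 genes (2.9%) and above it for 144 (0.986%), and below that at Pd3 for 552 (3.78%) and above it for 119 (0.815%). Both contrasts use the same Pd21 libraries. Without F1-HHcy replicate 1 of Pd21 the 568 genes of the first contrast became 1169. The 15 genes with the largest falls were chosen by their Pd21 effect, which by itself favours a Pd21 effect below the others. None of their values in the 12 younger libraries was above 12.1 FPKM, and Foxj1 and Tmem212 did not exceed 2.13 and 0.832 FPKM there. For genes so low, log2(FPKM + 1) left little room for a fall at Pd7 or Pd3. All 15 had a Pd21 effect below the Pd7 effect and below the Pd3 effect. In that model 0 of the 15 passed for the diet on Pd7 or Pd3. The low younger levels favoured both outcomes, so neither tells how the diet acted on those days. For Foxj1 the log2 fold change was -0.32 (SE 0.41) at Pd7 and 0.22 (SE 0.41) at Pd3. The Pd21 effect minus each of these was -4.82 (SE 0.59) and -5.36 (SE 0.59). Of the 298 fallen genes, 16 were lower with the diet at Pd7 (5.37%, against 6.97% of all genes in that model) and 2 higher (0.671%, against 4.83%). At Pd3, 8 were lower (2.68%, against 2.9%) and 1 higher (0.336%, against 3.14%). The medians of the 298 were -0.04 at Pd7 and 0.02 at Pd3.

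**Figure D5:**
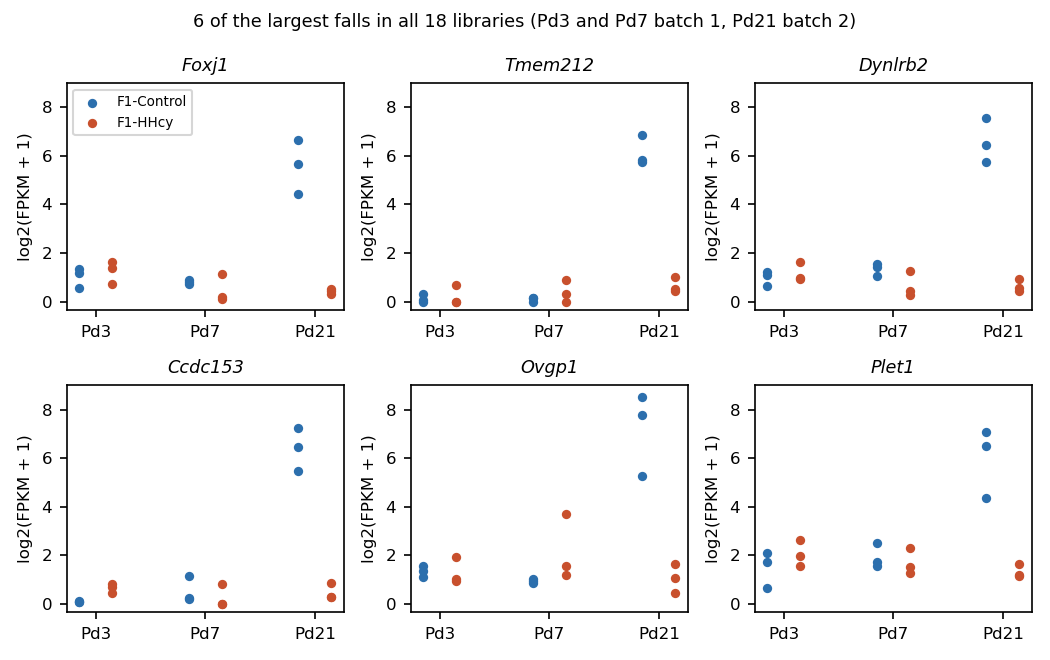
Log2(FPKM + 1) of 6 of the 15 genes with the largest falls in all 18 libraries, by day and by the diet of the mother (F1-Control blue, F1-HHcy orange). The 3 controls at Pd21 stand above the other 15 libraries in each of the 6 genes, while the F1-HHcy libraries at Pd21 lie near those of Pd3 and Pd7.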

How the data were processed

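RNA of whole ovaries was sequenced by the authors as stranded poly-A libraries. The submitters' processing notes name FastQC 0.11.9, Trimmomatic 0.39, STAR 2.7.9a, featureCounts 2.0.1, DESeq2 1.36.0 and the build GRCm38 (mm10). The authors deposited values already scaled for gene length and depth, with no unit named, and these were taken as FPKM, because all 27294 genes above 0 in at least 3 libraries gave whole fragment numbers (within 0.001 fragment) with whole gene lengths and library totals. Whether counting used the strand is not given in the sources used here, so a gene and an antisense partner may share reads. At Pd21, 1 fragment on 1 kilobase equals 0.0254 to 0.0277 FPKM. Intervals and floors cover counting error only.

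Genes that reached 1 FPKM in 3 or more of the 6 Pd21 libraries were tested with limma 3.58.1 in R 4.3.3 (moderated, variance trend, 2-sided, Benjamini-Hochberg) on log2(FPKM + 1), which understates the change of low genes. An exact permutation test of 3 libraries against 3 cannot give a p below 0.1. In simulated data for this comparison with 13350 genes, of which 200 were lowered by 1.5 on the log2 scale, 194 passed, as did 22 unaltered genes. The named genes come from the 15 largest falls (0 genes rose), the genes higher by the looser criterion (p under 0.05 before adjustment, log2 change over 0.58), and from each of 30 lists the 4 most abundant tested genes and the 4 with the smallest p. Members and lists were chosen with earlier results of these data known. Promoters came from a RefSeq table (GRCm38.p6), in which Foxj1 had no entry, and the motifs were chosen after seeing which genes fell. Alternatives were no filter, a pseudocount of 0.1, a replicate block, median-ratio scaling, a model of all 18 libraries, limma-voom on the recovered fragments, leaving out hemoglobin genes, and each library left out.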

Additional observations from a re-analysis of the deposited data

Results flagged for a closer look

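The diet difference at Pd21 differed from that of a younger day, by the test of the difference itself in 1 limma model of all 18 libraries with Benjamini-Hochberg adjustment, for 568 genes against Pd7 and 671 genes against Pd3. Among the 5 genes with the largest falls at Pd21, the Pd21 effect minus the Pd7 effect was -7.35 for Ovgp1, -5.28 for Dynlrb2, -5.65 for Ccdc153, -5.78 for Tmem212 and -4.82 for Foxj1 on the log2 scale. Minus the Pd3 effect it was -6.09 for Ovgp1, -6.15 for Dynlrb2, -6.47 for Ccdc153, -5.59 for Tmem212 and -5.36 for Foxj1. These genes were chosen by their Pd21 effect, which by itself favours such differences. Their low levels at Pd3 and Pd7 left little room for a fall there. Dynlrb2, Ccdc153 and Foxj1 also entered the Pd21 test through the controls alone. For these reasons no p-value is given for these 10 differences. Age and batch cannot be told apart between Pd21 and the other days, and the groups of 3 libraries were too small for a test of outlying samples.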

How the results depend on the processing

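The direction of all 87 genes named with values was kept under every alternative, and no alternative turned the surplus of lower genes. The 298 lower genes became 37 with no filter on low values (25 of them among the 298) and 494 with all 18 libraries in 1 model, ranged from 136 to 383 with 1 library left out, and were 155 without F1-Control replicates 1 and 3 together, where the 675 genes lower by the looser criterion became 445. The 0 risen genes became 1 with all 18 libraries in 1 model and 0 to 2 with 1 library left out. The 11 genes higher by the looser criterion became 5 with no filter, 17 with a pseudocount of 0.1, 32 with median-ratio scaling, 21 with all 18 libraries in 1 model and 4 to 110 with 1 library left out. Genes whose diet effect differed between Pd21 and Pd7 numbered 568, and 425 to 1169 with 1 Pd21 library left out, the highest without F1-HHcy replicate 1. The cause of these shifts was not tested. The replicate numbers were not taken as pairs in the main test, and same-numbered libraries did not deviate alike (correlations of same-numbered deviations -0.159, -0.117 and -0.338). With 3 libraries in a group, these correlations cannot show that no pairing exists. With the replicate block 345 genes were lower, 287 of them among the 298, and 17 were higher by the looser criterion. Median-ratio scaling moved the median of all genes to 0.04, and limma-voom on the recovered fragments called 259 lower genes, 249 of them among the 298. Depth limits genes near 0 FPKM, where an F1-HHcy level rests on few fragments.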
